A study of Mus musculus with 24 samples.

Results

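Glycolysis converts glucose to pyruvate and lactate, and the transcription factor HIF-1α raises many of its genes when oxygen is low. The genes described here were a named list of 34 from the rows of the deposited tables: 2 transporters of glucose and lactate, 7 enzymes from hexokinase to aldolase, 2 bifunctional enzymes that set the level of fructose-2,6-bisphosphate, 7 enzymes from triose phosphate to lactate, 3 genes of oxygen sensing, and 13 other genes known to be induced by hypoxia. All 34 were listed among the 18740 genes of the M1 or the M2 files, and the list was given by gene symbol. They were followed in 24 RNA-seq libraries of bone marrow-derived macrophages (BMDMs), which are macrophages grown from marrow precursors, here in L929-conditioned medium. The mice were C57BL/6 and 10 weeks old. M1 BMDMs had received 100 ng/ml LPS together with 50 ng/ml IFN-γ, and M2 BMDMs 10 ng/ml IL-4 together with 10 ng/ml IL-13, each for 12 h. Within each stimulus there were WT cells and cells of DRD5-/- mice, which carry a CRISPR-Cas9 deletion of the dopamine receptor gene Drd5, and each genotype was left untreated or given dopamine (DA, 20 μM). That gave 8 groups of 3 libraries. No group without LPS/IFN-γ or IL-4/IL-13 was among these libraries, so every comparison is between stimulated cells.

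HIF-1α protein, the product of Hif1a, is made continuously and marked for destruction in oxygen by prolyl hydroxylases, of which Egln1 and Egln3 encode 2. In macrophages, LPS is known to raise glycolysis and HIF-1α even with oxygen present, while IL-4-stimulated macrophages are known to lean on mitochondrial respiration. Target genes of HIF-1α include the glucose transporter Slc2a1, most glycolytic enzymes, the lactate exporter Slc16a3, Pdk1, which holds pyruvate back from the mitochondria, and the secreted factors Vegfa and Adm. The libraries measured RNA, not HIF-1α protein, glucose use or lactate.

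The authors deposited FPKM, fragments scaled by transcript length and by the fragments mapped in the library. Summed over genes, a library held 476187 to 494459 FPKM in M1 and 482310 to 503799 in M2. Pearson's r across genes lay between 0.998 and 0.999 for pairs of libraries within a group; genes are not independent of each other. The number of reads behind a value is unknown, and neither the labels nor the methods say whether the 3 libraries of a group came from separate mice or cultures, so p-values measure the spread between these libraries, which may be technical. The growth text of the labels places the origin of the cells in the colon, while the tissue label and the methods name bone. The macrophage list of 8 genes summed to between 7260 and 11300 FPKM with none of its genes at 0, whereas B cell, T cell and mast cell lists stayed at or below 6.66. Other lists were higher: the fibroblast list reached 128 FPKM in untreated M2 WT, and the neutrophil and progenitor list 83.1 in DA-treated M1 WT. Drd5 was listed in the M2 files alone, at a mean FPKM of at most 0.02 in any group, so the genotype could not be checked. Fewer cells of a type and less RNA per cell cannot be told apart in such bulk samples. The threshold for calling a gene changed was that of the study, at least 1.2-fold with an adjusted p under 0.001, in a limma fit of log2(FPKM + 1) over all genes that passed a filter of 1 FPKM in at least 3 libraries. All log2 changes are on that scale, which understates the change of genes with a low FPKM.

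The promoters are shown because HIF-1 binds DNA through a short core, written here as ACGTG or GCGTG and searched on both strands. RefSeq sequences of GRCm38.p6 gave windows of 250 bases before a listed start for 33 of the 34 genes, 46 windows in all, with no entry for Ndrg1. Among the member windows 80.4% held either core, against 38.6% of all 32851 promoter windows and 55.7% of the 11467 windows of genes tested across the 24 libraries. ACGTG alone was in 50.0% of member windows (16.6% of all, 21.9% of tested genes' windows) and GCGTG in 54.3% (28.2% and 44.3%). CACGTG, which contains ACGTG on both strands, was in 8.7% (6.02% and 8.47%). These shares are descriptions: several windows of a gene can overlap, and a match is a run of letters, not a shown binding site. The list holds many genes already known as HIF-1α targets, so its higher share is no independent result. The first window shown belongs to the lactate exporter, the gene with the largest M1 over M2 difference on the log2(FPKM + 1) scale. With a pseudocount of 0.1 Egln3 was ahead of it. Pgk1 (higher with DA in WT cells of both stimuli) and Ldha (higher with DA in M2 WT cells) follow. The last are Hif1a (lower with DA in M1 WT cells) and Ankrd37 (with DA higher in M2 WT and lower in M1 WT cells). Each window is written 5′ to 3′ along the gene's own strand, with core matches of either strand in capitals.
Slc16a3 (chr11:120948817-120949066, GRCm38.p6, strand +): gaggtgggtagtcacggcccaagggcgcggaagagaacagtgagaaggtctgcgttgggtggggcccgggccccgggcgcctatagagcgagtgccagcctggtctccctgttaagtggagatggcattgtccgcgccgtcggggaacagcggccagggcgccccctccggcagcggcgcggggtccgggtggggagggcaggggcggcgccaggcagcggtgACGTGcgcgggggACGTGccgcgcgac
Pgk1 (chrX:106186850-106187099, GRCm38.p6, strand +): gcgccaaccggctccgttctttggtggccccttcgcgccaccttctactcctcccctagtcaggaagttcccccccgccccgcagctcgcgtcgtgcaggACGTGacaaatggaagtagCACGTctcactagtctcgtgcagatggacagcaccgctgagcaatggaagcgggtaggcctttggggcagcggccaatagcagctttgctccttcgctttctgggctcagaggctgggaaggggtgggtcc
Ldha (chr7:46845554-46845803, GRCm38.p6, strand +): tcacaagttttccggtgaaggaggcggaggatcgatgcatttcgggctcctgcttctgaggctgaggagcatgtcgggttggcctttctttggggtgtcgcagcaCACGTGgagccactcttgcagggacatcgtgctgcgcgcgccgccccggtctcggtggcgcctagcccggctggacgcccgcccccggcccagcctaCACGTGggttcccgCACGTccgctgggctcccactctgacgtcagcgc
Hif1a (chr12:73907617-73907866, GRCm38.p6, strand +): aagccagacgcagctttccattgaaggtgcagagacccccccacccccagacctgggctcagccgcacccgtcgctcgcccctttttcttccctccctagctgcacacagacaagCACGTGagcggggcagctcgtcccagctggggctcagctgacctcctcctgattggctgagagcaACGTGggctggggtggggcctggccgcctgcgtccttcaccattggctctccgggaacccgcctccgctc
Ankrd37 (chr8:45999851-46000100, GRCm38.p6, strand -): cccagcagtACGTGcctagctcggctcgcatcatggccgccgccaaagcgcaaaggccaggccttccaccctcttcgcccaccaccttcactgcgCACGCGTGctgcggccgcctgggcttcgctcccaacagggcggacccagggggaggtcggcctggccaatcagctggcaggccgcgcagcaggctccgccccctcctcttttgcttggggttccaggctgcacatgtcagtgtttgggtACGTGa
The Ldha window held CACGTG at 2 places and a further core match that begins 34 bases before the start, and the Hif1a window held CACGTG at 1 place. Ldha has another listed start, whose window held 1 GCGTG match and no ACGTG match.

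Because FPKM is scaled by length, levels can be set side by side between genes. In untreated M1 WT BMDMs Gapdh was the highest of the 34 at 5436 ± 52.1 FPKM (SD, n = 3), followed by Pkm at 2362 ± 30.9 FPKM (SD, n = 3), Aldoa at 1399 ± 33.9 FPKM (SD, n = 3), Eno1 at 1281 ± 32 FPKM (SD, n = 3) and Ldha at 1242 ± 15.1 FPKM (SD, n = 3). These are the enzymes with the most abundant transcripts of the pathway. At the other end were Pfkfb4 at 8.53 ± 0.175 FPKM (SD, n = 3), Aldoc at 18.3 ± 0.2 FPKM (SD, n = 3) and Ankrd37 at 20.4 ± 0.62 FPKM (SD, n = 3). In untreated M2 WT BMDMs Gapdh again led at 1477 ± 46 FPKM (SD, n = 3), and Egln3 and Adm were lowest, at 0.520 ± 0.125 FPKM (SD, n = 3) and 0.833 ± 0.131 FPKM (SD, n = 3). Egln3 and Adm stayed under the filter in M2, so 34 genes were tested in M1 and 32 in M2. Eno1b, a close copy of Eno1, had a mean of at most 0.303 FPKM in any group.

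**Figure D1:**
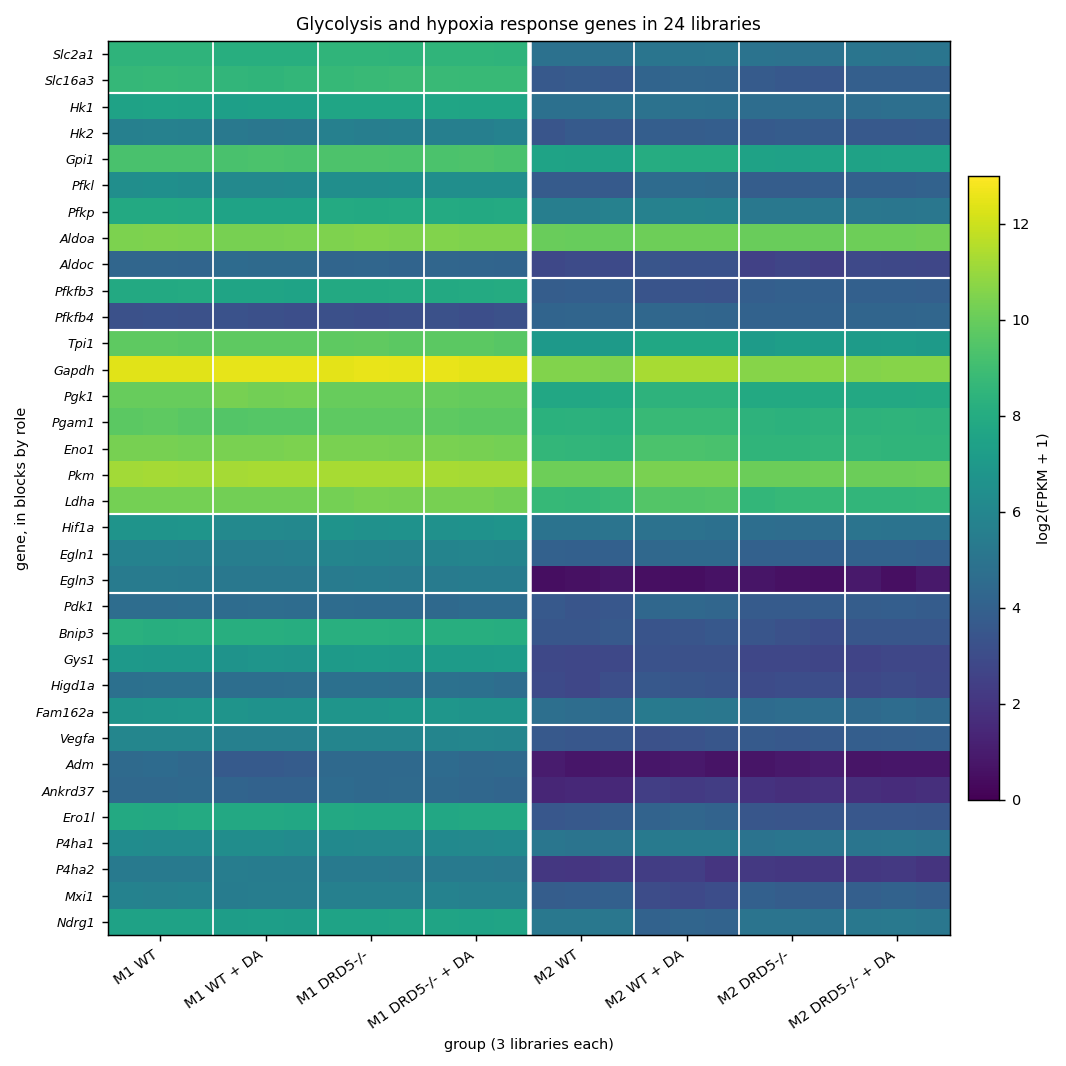
Log2(FPKM + 1) of the 34 genes (rows, in blocks by role) in each of the 24 libraries (columns, 3 in each of 8 groups). The 12 M1 libraries are brighter than the 12 M2 libraries in every row but Pfkfb4, and Gapdh is the brightest row.

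The comparison of untreated M1 with untreated M2 cells asked how far the opposing stimuli set these genes apart. Almost the whole list was higher in M1. All 34 genes passed the threshold in WT, 33 of them higher in M1 and Pfkfb4 lower. The same counts were found in DRD5-/- cells. This holds for the list and not for the pathway as a whole. Of 19 glycolytic enzymes and transporters tested outside the list, 5 were higher and 11 lower in M1 WT. Among all 11148 genes tested 77.5% were called in WT (22.6% higher and 54.9% lower) and 77.2% in DRD5-/- (23.4% and 53.8%). The median change of the 34 was 2.14 in WT and 2.15 in DRD5-/-, against -0.39 and -0.37 over all genes. In 33 of 34 genes every untreated M1 WT library lay above every untreated M2 WT library, as in 27.9% of all genes tested. The 1 other gene had the reverse order, as 62.3% of all genes did, and the groups overlapped in 9.78% of all genes. M1 and M2 libraries were deposited as separate sets of files, so stimulus and file set cannot be told apart. Scaling by medians of ratios moved the median of all genes by 0.38 in WT and 0.35 in DRD5-/-, and quantile normalization by 0.30 and 0.27. The genes called higher made up 29.2% of all calls in WT as deposited, 49.5% after median-of-ratios scaling and 44.4% after quantile normalization, and 30.4%, 49.1% and 43.8% in DRD5-/-. The counts for the 34 genes stayed at 33 and 1 under both scalings.

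Transport stood out at both ends of the pathway. Slc16a3, which encodes the lactate exporter MCT4, had 409.6, 414 and 400.3 FPKM in the untreated M1 WT libraries and 11.2, 12.2 and 11.4 in the untreated M2 WT libraries (log2 change 5.02, SE 0.0443, adjusted p = 3.38e-29). Slc2a1, the glucose transporter GLUT1, had 349.6, 351 and 351 FPKM against 27.8, 27.4 and 27.9 (log2 change 3.62, SE 0.0246, adjusted p = 3.41e-31). Both transporters had larger log2 differences than any of the 14 enzymes from hexokinase to lactate dehydrogenase.

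The listed enzymes from hexokinase to lactate dehydrogenase were higher in M1 by very different amounts. Among those from hexokinase to aldolase the largest difference was that of Pfkl (2.69), a phosphofructokinase-1 subunit, and the smallest that of Aldoa (0.46), the main aldolase. Between them lay Hk1 (2.68) and Hk2 (2.09), hexokinases that trap glucose, Pfkp (2.27), Gpi1 (1.75) and Aldoc (1.38). From triose phosphate to lactate the order ran from Tpi1 (2.73) over Pgk1 (2.14), Gapdh (1.88), Eno1 (1.76), Ldha (1.58) and Pgam1 (1.42) to Pkm (1.07). Ldha, which makes lactate from pyruvate, had 1249, 1252 and 1225 FPKM in untreated M1 WT and 413, 406 and 427 in untreated M2 WT libraries. The untreated M1 and M2 WT libraries did not overlap in any of these enzymes, which was also the case for most genes tested.

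The bifunctional enzymes moved in opposite directions. Pfkfb3, whose product mainly makes the activator of phosphofructokinase-1, had 237, 239 and 242 FPKM in untreated M1 WT libraries and 13.5, 13.8 and 13.6 in untreated M2 WT libraries (log2 change 4.04, SE 0.0275, adjusted p = 3.41e-31). Pfkfb4 had 8.48, 8.72 and 8.38 FPKM in M1 and 17.4, 17.8 and 18.2 in M2 (log2 change -0.98, SE 0.0365, adjusted p = 2.41e-17). It was the only gene of the 34 whose M2 libraries all lay above its M1 libraries. The ratio of Pfkfb3 to Pfkfb4 was 28.1 ± 0.718 (SD, n = 3) in untreated M1 WT and 0.765 ± 0.0151 (SD, n = 3) in untreated M2 WT cells.

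Of the oxygen sensors, Egln3 was far apart, with 40.9, 41.6 and 39.2 FPKM in untreated M1 WT and 0.420, 0.480 and 0.660 in untreated M2 WT libraries (log2 change 4.78, SE 0.0772, adjusted p = 2.45e-24). Egln1 differed less (1.73). Hif1a itself had 105, 104 and 109 FPKM in M1 and 29.5, 29.4 and 30.7 in M2 (log2 change 1.80, SE 0.0337, adjusted p = 4.37e-23). The transcript of the factor was thus higher in M1 by less than those of several genes it is known to induce.

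Bnip3, a mitophagy receptor, was among the widest differences, with 301, 284 and 298 FPKM in M1 and 10.2, 10.0 and 11.2 in M2 (log2 change 4.68, SE 0.0607, adjusted p = 3.71e-26). Ero1l, an oxidase of disulfide formation in the endoplasmic reticulum, had 238, 228 and 242 FPKM against 10.4, 11.6 and 12.6 (log2 change 4.25, SE 0.046, adjusted p = 1.31e-27). Gys1, the glycogen synthase of most tissues outside the liver, had 125, 121 and 121 FPKM against 6.07, 5.86 and 6.03 (log2 change 4.14, SE 0.0335, adjusted p = 6.98e-30). The collagen prolyl hydroxylases P4ha2 (3.22) and P4ha1 (1.25), the vasodilator peptide gene Adm (3.60), Ankrd37 (2.96), the angiogenic factor Vegfa (2.42), Ndrg1 (2.33), the Myc antagonist Mxi1 (1.83), the mitochondrial protein genes Fam162a (2.14) and Higd1a (1.89), and Pdk1 (1.13) completed the list. The plot of untreated M1 against M2 cells gives the DRD5-/- values beside those of WT, and Pfkp was at 2.72 there against 2.27 in WT.

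**Figure D2:**
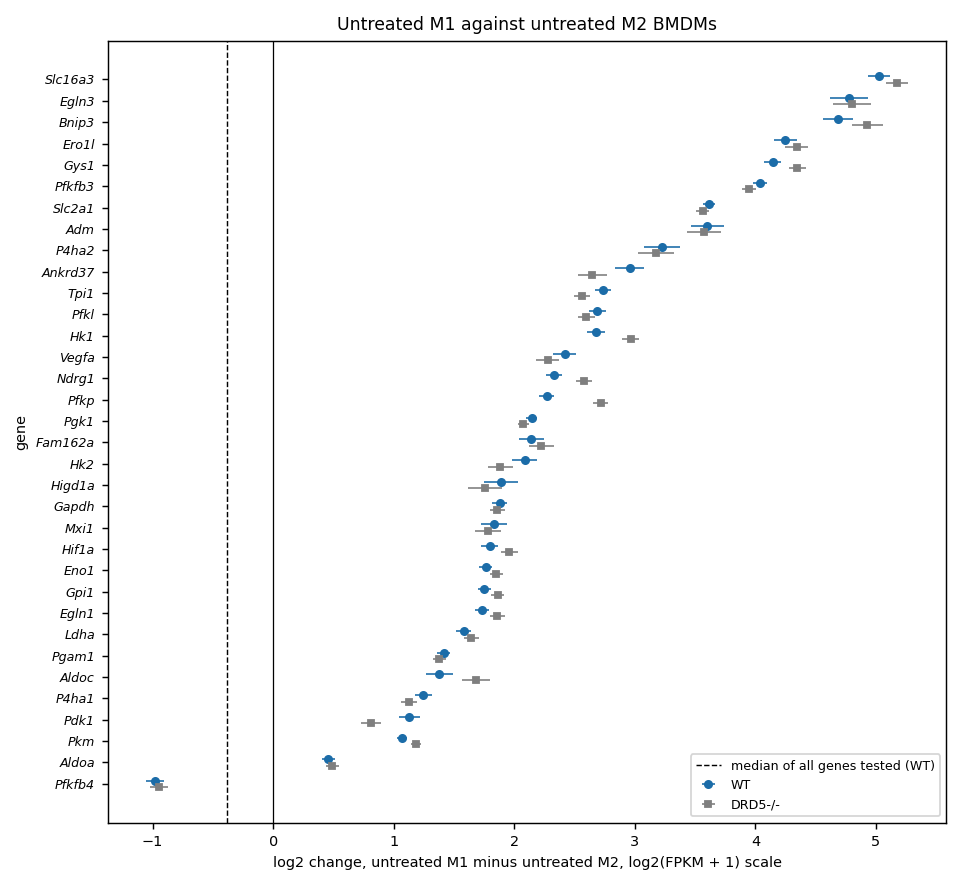
Log2 change of untreated M1 over untreated M2 cells for the 34 genes (rows, sorted by the WT value), with 95% confidence intervals from the limma fit. WT are circles and DRD5-/- squares. All genes but Pfkfb4 lie right of 0, up to 5.02 for Slc16a3 in WT, and the dashed line marks the median of all genes tested at -0.39.

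DA-treated M1 WT cells were compared with untreated M1 WT cells to ask what dopamine did to these genes in LPS/IFN-γ-stimulated macrophages. With DA, 9 of 34 genes passed the threshold, 8 of them lower, and the falls included Hif1a, the glucose transporter Slc2a1, the hexokinase Hk2 and the secreted factors Adm and Vegfa, while Pgk1 rose. Of all 10040 genes tested 14.3% were called, 4.73% higher and 9.6% lower. The median change of the 34 was -0.12, against -0.07 over all genes. All 3 DA-treated libraries were below all 3 untreated ones for 21 of the 34 genes (39.0% of all genes tested) and above them for 6 (17.5%). Scaling changed the balance of calls: of all calls 33.0% were higher as deposited, 55.6% after median-of-ratios scaling and 51.9% after quantile normalization. The 34 genes then gave 2 higher and 5 lower under median-of-ratios scaling, where Slc2a1, Vegfa and Ankrd37 no longer passed and Aldoc was added, and 2 higher and 7 lower under quantile normalization. Vegfa and Ankrd37 did not pass under quantile normalization either, so the set of called genes changed there too.

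Adm, which encodes the vasodilator peptide adrenomedullin, showed the largest fall. It had 21.39, 22.26 and 20.01 FPKM in untreated and 11.9, 11.9 and 12.7 in DA-treated M1 WT libraries (log2 change -0.75, SE 0.0461, adjusted p = 1.02e-08). Hif1a had 105, 104 and 109 FPKM without and 67.8, 68.5 and 66.1 with DA (log2 change -0.65, SE 0.0357, adjusted p = 3.84e-09). In both genes the groups were far from overlapping, and all 6 M1 DRD5-/- libraries lay above the DA-treated WT libraries.

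At the entry of the pathway, Hk2 had 49.5, 51.6 and 49.2 FPKM in untreated and 37.17, 35.04 and 35.39 in DA-treated M1 WT libraries (log2 change -0.47, SE 0.0413, adjusted p = 4.24e-07). Slc2a1 had 349.6, 351 and 351 FPKM without and 279, 288 and 286 with DA (log2 change -0.30, SE 0.0232, adjusted p = 1.11e-07). Slc16a3 did not pass (-0.12). Hk1 changed by -0.15, under the fold required. Slc2a1, Hk2, Slc16a3 and Hk1 were all lower in each DA-treated library than in each untreated one, as were 39.0% of all genes tested.

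Phosphofructokinase and its activator fell as well. Pfkp, a phosphofructokinase-1 subunit, had 234, 240.0 and 230.1 FPKM in untreated and 185, 186 and 185 in DA-treated M1 WT libraries (log2 change -0.34, SE 0.0245, adjusted p = 6.01e-08). Pfkfb3 had 237, 239 and 242 FPKM without and 190.1, 191 and 184 with DA (log2 change -0.34, SE 0.0251, adjusted p = 6.78e-08). The 2 sets of libraries were separate in both genes. Pfkl was past the p but just under the fold cutoff (-0.26, adjusted p = 1.71e-05), and Pfkfb4 was -0.05 with overlapping groups.

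Of the 7 enzymes from triose phosphate to lactate 1 was called, higher, and 0 lower in limma, against 4.73% and 9.6% of all genes. Pgk1, which forms ATP from 1,3-bisphosphoglycerate, had 999, 993 and 1011 FPKM in untreated and 1273, 1211 and 1239 in DA-treated M1 WT libraries (log2 change 0.31, SE 0.0241, adjusted p = 1.24e-07). The 3 DA-treated libraries were the highest of the 12 M1 libraries. Ldha had 1249, 1252 and 1225 FPKM without and 1200.0, 1199 and 1186 with DA, a difference that missed the threshold (log2 change -0.06, SE 0.0289, adjusted p = 0.134). The other 5 enzymes lay between -0.18 for Pgam1 and 0.10 for Gapdh.

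Of the 13 other hypoxia-induced genes, Adm, Vegfa (-0.30) and Ankrd37 (-0.29) passed, all lower. The 5 metabolic and mitochondrial ones (Pdk1, Bnip3, Gys1, Higd1a and Fam162a) ranged from -0.22 to -0.04 and none passed. Ndrg1 (-0.25, adjusted p = 1.67e-06) and Mxi1 (-0.24, adjusted p = 2.78e-05) were past the p but not the fold cutoff. Egln1 (-0.17) and Egln3 (-0.18) were likewise under 1.2-fold. The Ankrd37 call was lost without untreated or DA-treated M1 WT replicate 2 or 3 (values from -0.30 to -0.27).

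In M1 DRD5-/- cells none of the 34 genes passed the threshold in limma with DA, and 0 of the 10040 genes tested did (0.0%). At an unadjusted p under 0.05, 2 of the 34 and 569 of all genes were past it. The changes of the 34 ran from -0.15 to 0.05. Hif1a had 101, 94.8 and 97.4 FPKM in untreated and 94.6, 99.5 and 104 in DA-treated M1 DRD5-/- libraries, and Adm had 20.6, 20.9 and 21.0 and 22.5, 20.4 and 20.7. In both genes the 2 groups overlapped.

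The difference between the 2 DA effects, WT minus DRD5-/-, was tested in the same fit. It passed for 11 of 34 genes, 1 higher and 10 lower, against 8.38% of all genes (3.2% higher and 5.18% lower). The differences were largest for Adm (-0.78, SE 0.0652) and Hif1a (-0.67, SE 0.0504), followed by Hk2, Pfkfb3, Pfkp, Vegfa and Slc2a1. Gys1, Ndrg1 and Mxi1 joined them at -0.27 each, and Pgk1 was the gene with a positive difference (0.32). After median-of-ratios scaling 5 genes passed (Adm, Hif1a, Hk2 and Pfkfb3 lower, Pgk1 higher), and the share of higher calls among all genes went from 38.2% to 63.9%, with 56.4% after quantile normalization. Leaving out 1 library ended the call of Mxi1 in 10 of 12 cases (from -0.28 to -0.24; it held without untreated M1 WT replicate 2 or DA-treated M1 DRD5-/- replicate 3). The Gys1 call was lost without replicate 1 of untreated M1 WT, DA-treated M1 WT or untreated M1 DRD5-/-, or without DA-treated M1 DRD5-/- replicate 3 (from -0.26 to -0.25), and the last of these also ended the Ndrg1 call (-0.26).

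Untreated M1 DRD5-/- and WT cells differed past the threshold in none of the 34 genes in limma, against 0.936% of all genes (0.727% higher and 0.209% lower), with 13 of the 34 and 25.5% of all genes at an unadjusted p under 0.05. Gys1 was the farthest apart at 0.16. With DA in both genotypes, WT was past the threshold against DRD5-/- in 12 genes, 2 higher (Pgk1 and Aldoc) and 10 lower, against 18.5% of all genes (5.95% higher and 12.6% lower). That comparison shares its DA-treated WT libraries with the comparison above. In it Gys1 (-0.43) and Egln1 (-0.32) were lower in WT, besides Adm (-0.75) and Hif1a (-0.55). Higher calls were 32.1% of all calls as deposited, 52.5% after median-of-ratios scaling and 49.5% after quantile normalization, with 2 higher and 7 lower, then 2 and 9, among the 34 genes. Aldoc lost its call without DA-treated M1 DRD5-/- replicate 3 (0.23) or DA-treated M1 WT replicate 1 (0.26), and Vegfa without replicate 2 of either DA-treated group (-0.24 and -0.26).

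In M2 WT cells DA went with higher transcripts of most of the listed genes tested. In WT, 22 of 32 genes were called, 19 of them higher and 3 lower, and the 19 included 6 of the 7 enzymes from triose phosphate to lactate. Of all 10735 genes tested 46.3% were called, 25.9% higher and 20.4% lower, so a large share of all genes differed with DA in these cells. The median change of the 32 was 0.42, against 0.03 over all genes. All DA-treated libraries were above all untreated ones for 24 of the 32 (41.5% of all genes tested) and below them for 5 (34.5%). Of all calls 56.0% were higher as deposited, 52.6% after median-of-ratios scaling and 49.2% after quantile normalization. Hk2 and P4ha1 lost their calls under both scalings.

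The enzymes from triose phosphate to lactate rose nearly throughout. Ldha had 413, 406 and 427 FPKM in untreated and 725, 719.8 and 726 in DA-treated M2 WT libraries (log2 change 0.80, SE 0.0291, adjusted p = 8.34e-12). Gapdh (0.76), Eno1 (0.74), Tpi1 (0.70), Pgk1 (0.58) and Pgam1 (0.44) rose with it. Pkm, the pyruvate kinase of macrophages, missed the fold cutoff (0.23, adjusted p = 7.49e-08). Every DA-treated library was above every untreated one in these 7 genes.

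Among the upper enzymes the phosphofructokinase-1 subunit Pfkl had 12.4, 12.3 and 12.0 FPKM in untreated and 22.2, 22.5 and 21.7 in DA-treated M2 WT libraries (log2 change 0.80, SE 0.0388, adjusted p = 1.7e-10). Gpi1 (0.51), Aldoc (0.45) and Hk2 (0.28) also rose, and Hk1 (-0.00), Aldoa (0.13) and Pfkp (0.15) did not pass. The ratio of Pfkp to Pfkl went from 3.92 ± 0.274 (SD, n = 3) in untreated to 2.41 ± 0.0933 (SD, n = 3) in DA-treated M2 WT cells. The Hk2 call was lost without untreated M2 WT replicate 1 (0.20) and without any 1 of the DA-treated M2 WT libraries (0.27 to 0.29). It was also lost under both scalings, without the filter and in a fit of the compared groups.

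Slc16a3 had 11.2, 12.2 and 11.4 FPKM without and 17.2, 18.6 and 18.1 with DA (log2 change 0.59, SE 0.0503, adjusted p = 8.69e-08). Slc2a1 had 27.8, 27.4 and 27.9 and 32.4, 32.7 and 33.6, which was past the p but not the fold cutoff (log2 change 0.24, SE 0.0306, adjusted p = 6.4e-06). Pfkfb3 went the other way, with 13.5, 13.8 and 13.6 FPKM without and 9.38, 9.35 and 8.91 with DA (log2 change -0.52, SE 0.0363, adjusted p = 1.06e-08). The lactate exporter was thus higher, and the bifunctional enzyme lower, in every DA-treated library.

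Hif1a had 29.5, 29.4 and 30.7 FPKM in untreated and 28.5, 28.5 and 27.1 in DA-treated M2 WT libraries, and the difference missed the threshold (log2 change -0.09, SE 0.0321, adjusted p = 0.0227). The transcript of the factor was therefore not higher with DA where many glycolytic transcripts were. Egln1 rose (0.41).

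Pdk1, which encodes a kinase that switches off pyruvate dehydrogenase, had 11.2, 9.72 and 10.6 FPKM in untreated and 19.2, 19.7 and 18.7 in DA-treated M2 WT libraries (log2 change 0.81, SE 0.0461, adjusted p = 9.99e-10). Ankrd37, an ankyrin repeat gene known as a HIF-1 target, had 1.65, 1.79 and 1.84 FPKM without and 4.33, 3.61 and 4.06 with DA (log2 change 0.86, SE 0.0651, adjusted p = 2.57e-08). Both were higher in all DA-treated libraries, Ankrd37 from a low level. Fam162a (0.57), Ero1l (0.55), Higd1a (0.53), Gys1 (0.43) and P4ha1 (0.28) rose too. The P4ha1 call was lost without untreated M2 WT replicate 3 (0.26) and under both scalings.

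Other genes of the list fell. On the log2(FPKM + 1) scale Ndrg1 and Mxi1 had the largest changes of the 32, while as a plain ratio of means the rise of Ankrd37 (2.27-fold) was larger. Ndrg1, a stress-responsive gene known to be induced by hypoxia, had 35.6, 35.4 and 34.5 FPKM in untreated and 16.1, 18.2 and 16.5 in DA-treated M2 WT libraries (log2 change -1.02, SE 0.039, adjusted p = 1.47e-11). Mxi1 had 13.3, 13.7 and 14.8 FPKM without and 7.05, 6.35 and 7.34 with DA (log2 change -0.92, SE 0.063, adjusted p = 8.44e-09). The groups did not overlap in either gene. Vegfa (-0.20), Bnip3 (-0.07) and P4ha2 (0.14) did not pass, so the hypoxia-induced genes did not share 1 direction.

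**Figure D3:**
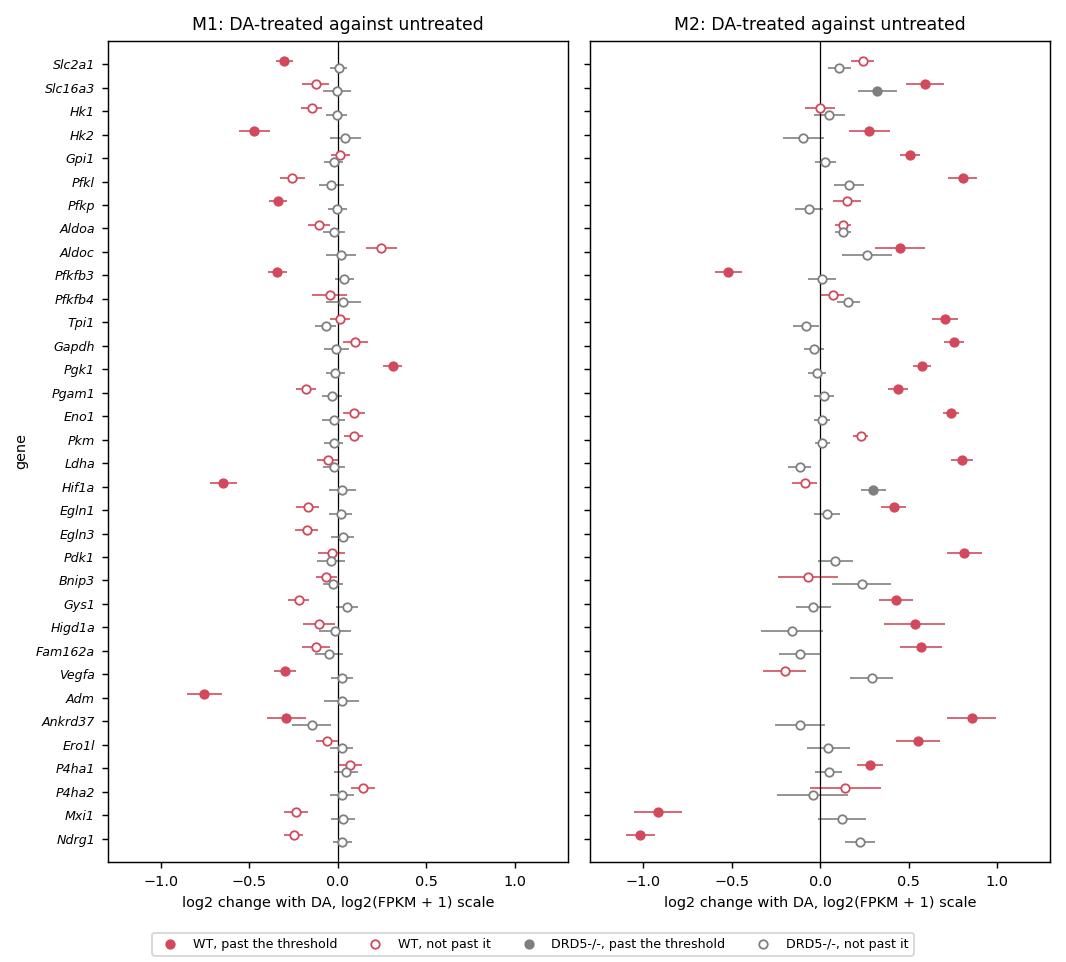
Log2 change with DA for the 34 genes (rows, by role) in M1 (left, 34 genes) and M2 cells (right, 32 genes), in WT (red) and DRD5-/- cells (grey), with 95% confidence intervals from the limma fit. Filled circles passed the threshold. Most red circles lie left of 0 in M1 and right of 0 in M2, and most grey circles lie near 0.

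In M2 DRD5-/- cells DA was followed by 2 calls among the 32 genes, both higher, against 4.02% of all genes (3.37% higher and 0.652% lower). Slc16a3 had 12.2, 11.1 and 10.4 FPKM in untreated and 14.4, 14.2 and 14.2 in DA-treated M2 DRD5-/- libraries (log2 change 0.32, SE 0.0503, adjusted p = 0.000349). Hif1a had 24.9, 23.9 and 24.5 FPKM without and 31.15, 29.98 and 29.72 with DA (log2 change 0.30, SE 0.0321, adjusted p = 2.19e-05). Both were higher in every DA-treated library, as were 11 of the 32 genes and 25.6% of all genes tested. The Slc16a3 call was lost without M2 DRD5-/- replicate 2 or 3 or any 1 of the 3 DA-treated M2 DRD5-/- libraries (0.27 to 0.33), leaving 1 call. Higher calls were 83.8% of all calls as deposited and 69.8% after median-of-ratios scaling.

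Ldha had 389, 420.5 and 419 FPKM in untreated and 372, 378 and 383 in DA-treated M2 DRD5-/- libraries (log2 change -0.12, SE 0.0291, adjusted p = 0.00803). Ndrg1 had 30.7, 30.7 and 30.1 and 35.8, 36.6 and 35.1 (log2 change 0.23, SE 0.039, adjusted p = 0.000765). In these 2 genes the DRD5-/- libraries moved slightly the other way from the WT libraries, without passing the threshold.

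The difference of the DA effects, WT minus DRD5-/-, passed for 21 of 32 genes in M2, 16 higher and 5 lower, against 43.2% of all genes (22.8% higher and 20.4% lower). It was largest for Ankrd37 (0.97) and Ldha (0.92) on the higher side. Ndrg1 (-1.24) and Mxi1 (-1.04) were lowest. Hif1a (-0.39) and Vegfa (-0.49) passed here although neither had passed in WT alone, and Slc16a3 (0.27) did not pass. The Hk2 difference (0.37) lost its call without any 1 of the 6 DA-treated libraries but M2 DRD5-/- replicate 3, and without untreated M2 DRD5-/- replicate 2 or 3 (0.35 to 0.38). It was also lost under quantile normalization, without the filter and without the intensity trend. Pgam1 lost its call under quantile normalization as well.

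Untreated M2 DRD5-/- cells differed from untreated M2 WT cells in 3 of 32 genes, against 5.51% of all genes (1.37% higher and 4.15% lower). Pfkp had 36.5, 35.4 and 36.5 FPKM in DRD5-/- and 46.5, 46.5 and 50.9 in WT libraries (log2 change -0.40, SE 0.0368, adjusted p = 2.61e-06). Hif1a (-0.28) was lower and Ankrd37 (0.38) higher in DRD5-/- cells. The Hif1a call was lost without untreated M2 WT replicate 3 (-0.26), when Pfkp alone was left, and under both scalings. The Ankrd37 call was lost without any 1 of the 6 untreated M2 libraries, DA-treated M2 WT replicate 3, or DA-treated M2 DRD5-/- replicate 1 or 3 (0.34 to 0.42). Higher calls were 24.8% of all calls as deposited, 40.1% after median-of-ratios scaling and 35.8% after quantile normalization, and the 32 genes gave 2 higher (Pdk1 and Ankrd37) and 1 lower (Pfkp), then 1 and 1. With DA in both genotypes, 22 genes differed, 18 higher and 4 lower in WT, against 49.7% of all genes (29.2% higher and 20.4% lower), from Ldha at 0.94 to Ndrg1 at -1.04. Among these 22, Pgam1 and Slc16a3 lost their calls under quantile normalization.

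The DA effects in WT cells were compared between the stimuli in a fit over all 24 libraries. M1 minus M2 passed for 23 of 34 genes, 2 higher and 21 lower, against 45.9% of all genes (17.6% higher and 28.2% lower). The 2 were Ndrg1 (0.77) and Mxi1 (0.68). On the lower side Ankrd37 (-1.15), Pfkl (-1.06) and Ldha (-0.86) were farthest. Higher calls were 38.4% of all calls as deposited, 46.7% after median-of-ratios scaling and 51.3% after quantile normalization, while the 34 genes gave 2 higher and 20 lower under both. Bnip3 (0.00) and P4ha2 (0.00) did not differ past the threshold. The Pgk1 difference (-0.27) fell under the fold cutoff without replicate 2 of untreated M2 WT, DA-treated M2 WT or DA-treated M1 WT, M2 WT replicate 1 or M1 WT replicate 3 (-0.26 to -0.25).

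**Figure D4:**
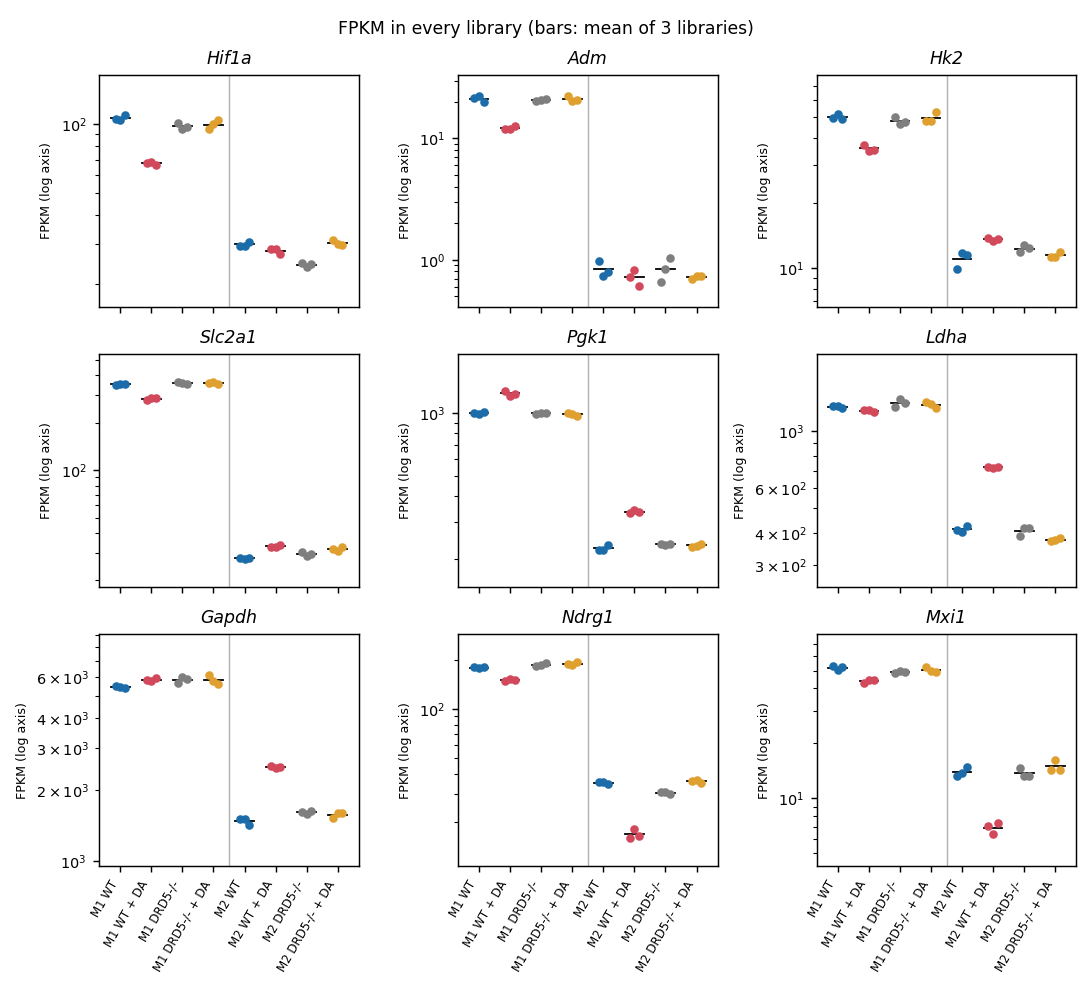
FPKM (log axis) of 9 of the genes in each library, by group, with a bar at the mean of 3 libraries and a grey line between M1 and M2. Hif1a, Adm, Hk2 and Slc2a1 are lowest in DA-treated WT among the M1 groups, and Pgk1, Ldha and Gapdh are highest in DA-treated WT among the M2 groups, where Ndrg1 and Mxi1 are lowest.

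The 14 enzymes from hexokinase to lactate dehydrogenase were also summed per library. In M2 they made up between 1.07% and 1.09% of the FPKM of untreated WT libraries, 1.52% to 1.54% with DA, 1.09% to 1.11% in untreated DRD5-/- and 1.13% to 1.16% in DA-treated DRD5-/- libraries. In M1 the share was 3.18% to 3.23% in untreated WT, 3.30% to 3.37% with DA, 3.32% to 3.38% in untreated DRD5-/- and 3.30% to 3.37% in DA-treated DRD5-/- libraries. The DA-treated M2 WT libraries stood apart from the other M2 groups, whereas the DA-treated M1 WT libraries fell within the range of the DRD5-/- groups. In M1 the untreated WT libraries were the lowest, so every DA-treated WT library lay above every untreated one. Gapdh and Pkm were the largest terms of the sum in untreated WT cells of both stimuli.

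Neighbouring pathways gave mixed pictures. Of glycolytic enzymes and transporters outside the 34, 18 were tested in M1 WT, 0 were higher and 5 lower with DA (limma), with Slc16a1, a monocarboxylate transporter, at -0.92 and Slc2a3, another glucose transporter, at -0.38. In M2 WT 19 were tested, 7 were higher and 4 lower, with Slc16a1 at 1.01 and Slc2a6 at -2.14. The pentose phosphate pathway, which branches off after hexokinase and makes NADPH, had 2 of 9 tested genes higher in M1 WT, Pgd (0.38) and H6pd (0.29), and none lower. In M2 WT 7 of 11 were higher and none lower, with Tkt at 0.47. These lists were read against the 14.3% and 46.3% of all genes called in the 2 comparisons.

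Downstream of pyruvate, 12 genes of pyruvate entry and pyruvate dehydrogenase control were tested in M1 WT, with 1 higher (Pdp1, 0.41) and 2 lower (Pdhx, -0.42, and Pdk3, -0.29). In M2 WT 1 of 13 was higher (Pdha1, 0.54) and 6 were lower, among them Pdk2 (-0.90) and the pyruvate carrier subunit Mpc1 (-0.54). Of 21 tricarboxylic acid cycle genes, 1 was higher and 4 lower in M1 WT, and 6 were higher and 3 lower in M2 WT. Of all genes tested, 4.73% were higher and 9.6% lower with DA in M1 WT. In M2 WT 25.9% were higher and 20.4% lower, so calls in these lists are common among genes of any kind. The isocitrate dehydrogenase gene Idh1 was higher with DA in M1 WT (0.54) and lower in M2 WT (-1.44), where Idh2 was higher (1.11).

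Of 28 further hypoxia-induced genes tested in M1 WT, 0 were higher and 9 lower with DA (limma), Sap30 (-0.62) among them. In M2 WT 9 of 30 were higher and 12 lower. The collagen cross-linking enzyme Lox was higher there (1.202), and the chemokine receptor Cxcr4 (-2.36) was lower. Of oxygen sensing genes outside the list, 1 of 13 was lower in M1 WT (the ubiquitin ligase gene Siah2, -0.50). In M2 WT 2 of 14 were higher and 2 lower. Beside these DA counts stand 14.3% of all genes called in M1 WT and 46.3% in M2 WT. Between untreated M1 and M2 WT cells, 19 of the 31 further hypoxia-induced genes tested were higher and 9 lower, and 5 of the 19 further glycolytic genes were higher and 11 lower, against 22.6% and 54.9% of all genes.

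Markers of other cell types moved with some groups. In M1 WT the 8 neutrophil and progenitor genes summed to between 44.7 and 56.6 FPKM without DA and between 63.7 and 83.1 with DA, a rise that was mostly S100a8 (a mean of 25.0 and 41.7 FPKM), with Ngp at 8.5 and 8.64 and Ltf at 2.23 in both, against 14.7 to 18.2 and 17.3 to 20.1 in DRD5-/- cells, with 3 of 8 under 1 FPKM in WT and 7 in DRD5-/-. The 6 dendritic cell genes summed to 38.2 to 40.4 in untreated and 21.5 to 22.5 in DA-treated M1 WT cells, nearly all of it Ccr7 (a mean of 36.9 and 20.1), with 4 of 6 under 1 FPKM in each. The 6 fibroblast genes summed to between 4.4 and 5.27 FPKM over the M1 groups. In M2 they summed to 126 to 128 in untreated WT, 104 to 105 in DA-treated WT, 79.0 to 81.0 in untreated DRD5-/- and 85.9 to 87.4 in DA-treated DRD5-/- cells. The fall with DA in WT was mostly that of Dcn (a mean of 75.1 and 43.3) and Lum (2.54 and 1.11), while Col1a1 (19.0 and 23.4), Col1a2 (21.5 and 25.9) and Col3a1 (6.97 and 8.79) went up. The macrophage list summed to 10700 to 10900 in untreated and 8350 to 8390 in DA-treated M2 WT cells. That fall was mostly Lyz2 (a mean of 6800 and 4750). Csf1r was also lower (985 and 697), Cd68 was nearly level (2230 and 2210), and Itgam alone went up (132 and 198). In M1 WT the macrophage sum was higher with DA, 8170 to 8240 against 7480 to 7600. The 10 heart genes of a list chosen after their values were seen summed to 14.5 to 19.5 in untreated M1 WT against 2.34 to 2.88 in untreated M1 DRD5-/- cells, where 6 of 10 were at 0. Their part in the changes of the glycolytic and hypoxia genes was not tested.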

How the data were processed

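RNA-seq of 24 BMDM libraries was used, 3 in each of 8 groups taken from the sample labels. Per the methods of the study, reads were sequenced on a BGISEQ-500 and mapped with HISAT2 to GRCm38.p5. The submitters' processing notes instead name Bowtie2 2.2.5 and GRCm38.p6, and which applies was not settled. The authors deposited FPKM per gene and no read counts, which leaves the depth unknown, and their length correction and filtering stay in every value.

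Genes with at least 1 FPKM in at least 3 libraries entered a limma fit (version 3.58.1, R 4.3.3) of log2(FPKM + 1), with an intensity trend and a mean for each group. M1 and M2 were fitted apart (12 libraries, 8 residual degrees of freedom), and contrasts between them on all 24 libraries (16 degrees of freedom). P-values were adjusted over all genes tested by the Benjamini-Hochberg method, with a threshold of adjusted p under 0.001 and 1.2-fold. The fit was also run on simulated data. Their noise was drawn from the fitted spread, so they cannot show whether that spread is technical. Same-numbered libraries did not deviate together (r of their residuals averaged -0.0208 for M1 and -0.016 for M2) and were left unpaired. Full values are given for Hif1a, Slc2a1 and Ldha and for the 6 largest called changes of 3 comparisons (DA in M1 WT, DA in M2 WT, and untreated M1 against M2 WT), and of each further list at most 4 genes per stimulus. Alternatives were quantile normalization, median-of-ratios scaling, no filter, fitting only the groups compared, a pseudocount of 0.1, a replicate block, no trend, an adjusted p of 0.05, 1.5-fold, and leaving out each library. The genes, lists and tests were chosen with earlier results of these data known. Tables and figures were made with Python 3.11.15, numpy 2.4.6, pandas 2.3.3 and matplotlib 3.10.9.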

Additional observations from a re-analysis of the deposited data

Results flagged for a closer look

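The effect of DA differed between genotypes or stimuli for many of the genes, by limma's test of the difference itself (adjusted p under 0.001 and 1.2-fold). All values are differences of log2 changes, and the comparisons share libraries, so their counts are not independent. In M1, WT minus DRD5-/-, the difference was below 0 for Slc2a1 (-0.31), Hk2 (-0.51), Pfkp (-0.33), Pfkfb3 (-0.38), Hif1a (-0.67), Gys1 (-0.27), Vegfa (-0.32), Adm (-0.78), Mxi1 (-0.27) and Ndrg1 (-0.27), and above 0 for Pgk1 (0.32).

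In M2, WT minus DRD5-/-, the difference was above 0 for the glycolytic enzyme genes and Egln1 and Pdk1, that is Hk2 (0.37), Gpi1 (0.48), Pfkl (0.64), Tpi1 (0.78), Gapdh (0.79), Pgk1 (0.60), Pgam1 (0.42), Eno1 (0.72), Ldha (0.92), Egln1 (0.37) and Pdk1 (0.73). The other hypoxia-induced genes above 0 were Gys1 (0.47), Higd1a (0.69), Fam162a (0.68), Ankrd37 (0.97) and Ero1l (0.51). It was below 0 for Pfkfb3 (-0.53), Hif1a (-0.39), Vegfa (-0.49), Mxi1 (-1.04) and Ndrg1 (-1.24).

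Between the stimuli in WT, M1 minus M2, the difference was below 0 for the transporters and enzymes Slc2a1 (-0.54), Slc16a3 (-0.72), Hk2 (-0.75), Gpi1 (-0.49), Pfkl (-1.06), Pfkp (-0.49), Tpi1 (-0.69), Gapdh (-0.66), Pgk1 (-0.27), Pgam1 (-0.62), Eno1 (-0.64) and Ldha (-0.86). Among the other genes it was below 0 for Hif1a (-0.56), Egln1 (-0.58), Pdk1 (-0.85), Gys1 (-0.65), Higd1a (-0.64), Fam162a (-0.69), Adm (-0.66), Ankrd37 (-1.15) and Ero1l (-0.62). It was above 0 for Mxi1 (0.68) and Ndrg1 (0.77), the 2 genes with the largest falls in DA-treated M2 WT cells. Stimulus and file set cannot be told apart in this last comparison.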

How the results depend on the processing

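The 193 member changes past the threshold were recomputed in 4727 alternative values. These leave out the 2 changed cutoffs, 1.5-fold and an adjusted p of 0.05. Of the 4727, 4625 kept their direction and their side of the threshold, 102 lost the threshold, and 0 reversed. The 102 belonged to 24 changes, of which 23 were lost in an alternative other than leaving out a library. Losses at 1.5-fold come on top of the 102. A cutoff of 1.5-fold, stricter by construction, left 2 genes for DA in M1 WT, 2 for the M1 difference of DA effects, 1 for M1 WT against DRD5-/- with DA, 10 for DA in M2 WT, 0 for DA in M2 DRD5-/-, 12 for the M2 difference, 0 for untreated M2 DRD5-/- against WT and 12 for M2 WT against DRD5-/- with DA. Median-of-ratios scaling left 5 genes for the M1 difference, where all 10040 genes moved by a median of 0.07. DA in M2 DRD5-/- gave 1 gene without the filter, 1 in a fit of the compared groups and 4 at an adjusted p of 0.05, where untreated M2 DRD5-/- against WT gave 5; for these the cause was not tested. Leaving out each library gave 1 to 3 genes for DA in M2 DRD5-/-, 1 to 3 for untreated M2 DRD5-/- against WT, 8 to 9 for DA in M1 WT, 9 to 11 for the M1 difference, and 21 to 22 for DA in M2 WT. Residuals of same-numbered libraries from their group means correlated between -0.178 and 0.179, so no shared deviation was seen. Whether the numbers mark a pairing is unknown. With a replicate block the M1 difference gave 10 genes instead of 11 (without Mxi1, -0.27), and the counts of the other 12 comparisons were as without it. Low FPKM (Egln3, Adm and Ankrd37 in M2) limit what can be read, since the reads behind them are unknown. Over all genes, 1.5-fold left 248 of 1439 calls for DA in M1 WT, 245 of 841 for the M1 difference, 332 of 1861 for M1 WT against DRD5-/- with DA, 2028 of 4971 for DA in M2 WT, 33 of 432 in M2 DRD5-/-, 2293 of 4636 for the M2 difference, 167 of 592 for untreated M2 DRD5-/- against WT, 2264 of 5333 with DA, and 2690 of 5114 for M1 minus M2. An adjusted p of 0.05 gave 1836, 719 and 895 for the M1 difference, DA in M2 DRD5-/- and untreated M2 DRD5-/- against WT. Untreated M1 DRD5-/- against WT went from 94 to 43 without the filter, 36 without the trend, 202 at 0.05 and 18 at 1.5-fold.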

Other observations

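Paralogous enzymes shared their level differently between groups. The ratio of Hk2 to Hk1 was 0.275 ± 0.00361 (SD, n = 3) in untreated and 0.218 ± 0.0119 in DA-treated M1 WT cells, and 0.399 ± 0.0314 in untreated and 0.491 ± 0.0213 in DA-treated M2 WT cells. In untreated and DA-treated M2 DRD5-/- cells it was 0.507 ± 0.021 and 0.455 ± 0.0157. The ratio of Pfkfb3 to Pfkfb4 was 22.9 ± 1.15 with DA in M1 WT cells, against 28.1 ± 0.718 without it, and 0.492 ± 0.00308 with DA in M2 WT cells, against 0.765 ± 0.0151 without it. No test was run on these ratios.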
